A study of Mus musculus with 7 samples.

Results

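Open chromatin of the E16 mouse hindstomach was set against that of the E16 small intestine, using the 2 deposited lists of ATAC-seq peaks. ATAC-seq cuts accessible DNA with a transposase, and a peak is a stretch where many cuts fell. Overlapping peaks of both lists on the 19 autosomes and chromosome X were merged into 157727 regions, and each region was classed by the lists that had a peak in it. Of these, 61229 were hindstomach-only, 45506 were intestine-only and 50992 were shared. Merging all 7 lists of the series gave 326695 regions.

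Both libraries came from embryonic epithelium freed with EDTA. The sample titles give the age as E16, while the protocol text gives a slightly later age. Titles and protocol differ in the same way for the forestomach, colon and E13 libraries. The embryos carried ShhCre and R26YFP/+, a Cre under control of the Sonic hedgehog gene and a fluorescent reporter that it switches on. The hindstomach was cut from the forestomach along the border of squamous and glandular tissue and held in 10 mM EDTA, and the proximal small intestine was held in 5 mM EDTA, each for 30 to 40 min. The protocol text used here ends before it says whether the E16 cells for ATAC-seq were sorted or pooled. The other 5 libraries served as outside readouts: E16 forestomach (freed with dispase), E16 colon (5 mM EDTA), sorted reporter-positive cells of E13 stomach and E13 intestine, and a Sox2 knockout (KO) of E16 stomach, for which the protocol text used here gives neither isolation nor driver. There was 1 library per group, so no difference between tissues was tested, and the 95% Wilson intervals in parentheses cover counting error only. The lists hold peak positions with no height, score or read count, so depth is unknown. Hindstomach had 113117 peaks with a median width of 147 bp, and intestine had 97568 peaks with a median width of 130 bp.

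Hindstomach and small intestine both arise from the endodermal gut tube. SOX2 and GATA factors are known for their part in patterning the stomach, whose glandular lining makes mucus, acid and pepsinogen. CDX factors specify the intestine, where HNF4 factors are known activators of the genes by which absorptive enterocytes take up fat, sugar and amino acids across the brush border.

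Start sites were more often open in both tissues than other regions were, and 8 promoters that held a peak in 1 of the 2 tissues are printed here, since they name the genes where the tissues differed. They are RefSeq promoters of GRCm38.p6, 5′ to 3′ in the direction of transcription, from 250 bases before to 50 bases after the start site. Capitals mark matches, on either strand, to the letters known for the GATA factors, which are AGATAA, for CDX and HOX factors, which are TTTATNG, for AP-1, which are TGANTCA, and for HNF4, which are CAAAGTCCA or the looser CAAAGNNCA, where the looser form takes in every match of the other. Anxa10, Cldn18 and Agr2 had a peak in hindstomach only, and were chosen as 2 glandular genes and 1 mucous gene. The Cldn18 window is that of its upstream start site. Its downstream window, which also had a peak in hindstomach only and is not printed, held CAAAGCTCA, a match to the looser HNF4 letters.
Anxa10, chr8:62123144-62123443, minus strand: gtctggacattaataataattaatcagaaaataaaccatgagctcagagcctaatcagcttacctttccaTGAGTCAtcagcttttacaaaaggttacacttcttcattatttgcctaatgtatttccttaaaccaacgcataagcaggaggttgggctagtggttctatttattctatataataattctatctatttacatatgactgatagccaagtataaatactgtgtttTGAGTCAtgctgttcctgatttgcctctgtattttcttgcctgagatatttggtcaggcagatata
Cldn18, chr9:99717218-99717517, minus strand: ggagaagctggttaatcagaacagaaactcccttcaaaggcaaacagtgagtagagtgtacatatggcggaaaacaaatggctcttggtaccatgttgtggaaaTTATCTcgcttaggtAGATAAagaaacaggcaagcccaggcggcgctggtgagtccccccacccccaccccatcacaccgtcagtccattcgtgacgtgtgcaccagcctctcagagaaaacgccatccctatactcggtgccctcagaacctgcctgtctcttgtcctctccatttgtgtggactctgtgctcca
Agr2, chr12:35992675-35992974, plus strand: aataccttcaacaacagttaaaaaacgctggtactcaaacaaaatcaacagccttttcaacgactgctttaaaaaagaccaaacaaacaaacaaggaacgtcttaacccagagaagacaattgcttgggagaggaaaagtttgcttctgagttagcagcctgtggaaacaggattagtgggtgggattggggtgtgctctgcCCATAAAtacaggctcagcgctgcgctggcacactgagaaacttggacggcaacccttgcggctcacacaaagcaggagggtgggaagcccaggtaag
The printed windows of Apob, Sis, Hnf4a, Slc3a1 and Muc13 had a peak in intestine only, and stand for fat export, sugar digestion, the HNF4 factors themselves, amino acid uptake and the membrane mucins. The Hnf4a window is that of its downstream start site, while its upstream one had a peak in both tissues. Slc3a1 and Muc13 are among the 12 of 424 intestine-only windows that held CAAAGTCCA, so the printed windows are not typical in these letters. The intestine-only windows of Apoa1, Vil1, Vdr and Npc1l1, which are not printed, held none of the marked letters.
Apob, chr12:7977427-7977726, plus strand: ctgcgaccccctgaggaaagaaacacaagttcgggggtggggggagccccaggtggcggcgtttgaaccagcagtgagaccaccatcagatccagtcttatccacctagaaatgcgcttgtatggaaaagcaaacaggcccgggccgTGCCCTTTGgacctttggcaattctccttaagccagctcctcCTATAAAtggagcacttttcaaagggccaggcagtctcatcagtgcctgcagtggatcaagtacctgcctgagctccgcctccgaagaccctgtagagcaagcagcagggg
Sis, chr3:72967814-72968113, minus strand: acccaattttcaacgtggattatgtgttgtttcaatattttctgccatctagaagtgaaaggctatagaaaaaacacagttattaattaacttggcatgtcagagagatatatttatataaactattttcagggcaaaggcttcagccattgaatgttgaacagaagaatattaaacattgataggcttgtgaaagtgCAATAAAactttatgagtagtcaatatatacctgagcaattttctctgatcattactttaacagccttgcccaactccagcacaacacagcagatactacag
Hnf4a, chr2:163546905-163547204, plus strand: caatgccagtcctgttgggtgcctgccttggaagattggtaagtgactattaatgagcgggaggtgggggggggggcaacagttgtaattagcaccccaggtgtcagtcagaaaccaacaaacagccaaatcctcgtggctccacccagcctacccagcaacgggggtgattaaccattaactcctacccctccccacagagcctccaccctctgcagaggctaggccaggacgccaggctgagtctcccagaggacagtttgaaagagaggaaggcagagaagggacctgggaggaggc
Slc3a1, chr17:85028097-85028396, plus strand: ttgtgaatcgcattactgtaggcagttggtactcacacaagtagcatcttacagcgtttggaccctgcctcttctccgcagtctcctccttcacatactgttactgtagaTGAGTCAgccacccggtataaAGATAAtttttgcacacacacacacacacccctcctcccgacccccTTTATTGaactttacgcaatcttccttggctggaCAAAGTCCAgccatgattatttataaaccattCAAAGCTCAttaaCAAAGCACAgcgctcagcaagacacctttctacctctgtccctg
Muc13, chr16:33794239-33794538, plus strand: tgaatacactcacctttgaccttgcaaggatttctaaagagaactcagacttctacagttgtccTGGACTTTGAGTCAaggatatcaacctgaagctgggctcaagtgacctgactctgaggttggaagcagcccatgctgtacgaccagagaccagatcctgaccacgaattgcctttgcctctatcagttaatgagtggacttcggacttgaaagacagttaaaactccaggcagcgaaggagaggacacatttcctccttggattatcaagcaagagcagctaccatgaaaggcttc
In the Anxa10 promoter TGAGTCA began at positions -180 and -16, counted back from the start site, and no HNF4, CDX or GATA letters were in the window. In the Slc3a1 promoter CAAAGTCCA began at -39, with TTTATTG at -73 and AGATAA at -119. In Muc13 the HNF4 letters, read on the opposite strand from -186, overlapped an AP-1 match from -179. Apob held CTATAAA, a CDX match on the opposite strand, from -61, letters that a TATA box can share. A match is a description of letters and not a site of binding.

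Hindstomach-only regions made up 38.8% of all regions (38.6 to 39.1), intestine-only regions 28.9% (28.6 to 29.1) and shared regions 32.3% (32.1 to 32.6). The shared regions were 45.4% of the hindstomach regions and 52.8% of the intestine regions. Of the unshared regions, 57.4% (57.1 to 57.7) were hindstomach-only. This majority depended on list length: with the widest 97568 peaks of each list, the number in the shorter one, the log2 ratio of the 2 unshared classes, hindstomach over intestine, was 0.01. Unshared regions were narrow, with medians of 126 bp for hindstomach-only and 105 bp for intestine-only regions, against 229 bp for shared ones. In shared regions, 96.4% of which held 1 peak of each library, hindstomach peaks had a median width of 185 bp and intestine peaks 170 bp.

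The classes differed in where they lay. Within 1 kb of a start site were 9.40% (9.17 to 9.63) of hindstomach-only regions, 4.65% (4.46 to 4.85) of intestine-only regions and 23.5% (23.2 to 23.9) of shared regions. Near start sites 5753 regions were hindstomach-only and 2115 intestine-only, so hindstomach held 73.1% (72.1 to 74.1) of the unshared ones there. Away from start sites the counts were 55476 and 43391, or 56.1% (55.8 to 56.4). Of hindstomach-only regions 14.2% lay over 100 kb from any protein-coding gene, against 20.7% of intestine-only regions. By chromosome, the hindstomach share of unshared regions was highest on chromosome 19 at 61.2% and lowest on chromosome X at 51.1% (49.3 to 52.9).

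The other libraries, which took no part in the classing, separated the classes. A forestomach peak lay in 40.9% of hindstomach-only and 12.8% of intestine-only regions, and a colon peak in 21.3% and 40.4%. Regions with a peak in forestomach and none in colon were 31.5% (31.2 to 31.9) of the hindstomach-only and 4.23% (4.05 to 4.42) of the intestine-only class. With a peak in colon and none in forestomach they were 11.9% (11.7 to 12.2) and 31.8% (31.4 to 32.3). Over all regions, the hindstomach-only class thus had more forestomach peaks and the intestine-only class more colon peaks. Within 1 kb of start sites the colon difference was small, with a colon peak in 20.9% (19.9 to 22.0) of hindstomach-only and 24.5% (22.8 to 26.4) of intestine-only regions, and there 35.1% of intestine-only regions had a peak in E13 stomach and 45.2% in KO stomach. At E13 both libraries, intestine included, had peaks more often in the hindstomach-only class. E13 stomach had a peak in 30.5% of hindstomach-only and 8.91% of intestine-only regions, and E13 intestine had one in 18.5% and 10.3%. KO stomach had a peak in 42.6% of hindstomach-only regions and 8.63% of intestine-only regions. None of the other 5 libraries had a peak in 27.6% of hindstomach-only and 46.4% of intestine-only regions, against 3.83% of shared regions. With an overlap of at least 50% required, the 15 shares of a class with a peak in 1 given library were lower by 1.9 to 15.8 percentage points.

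**Figure D1:**
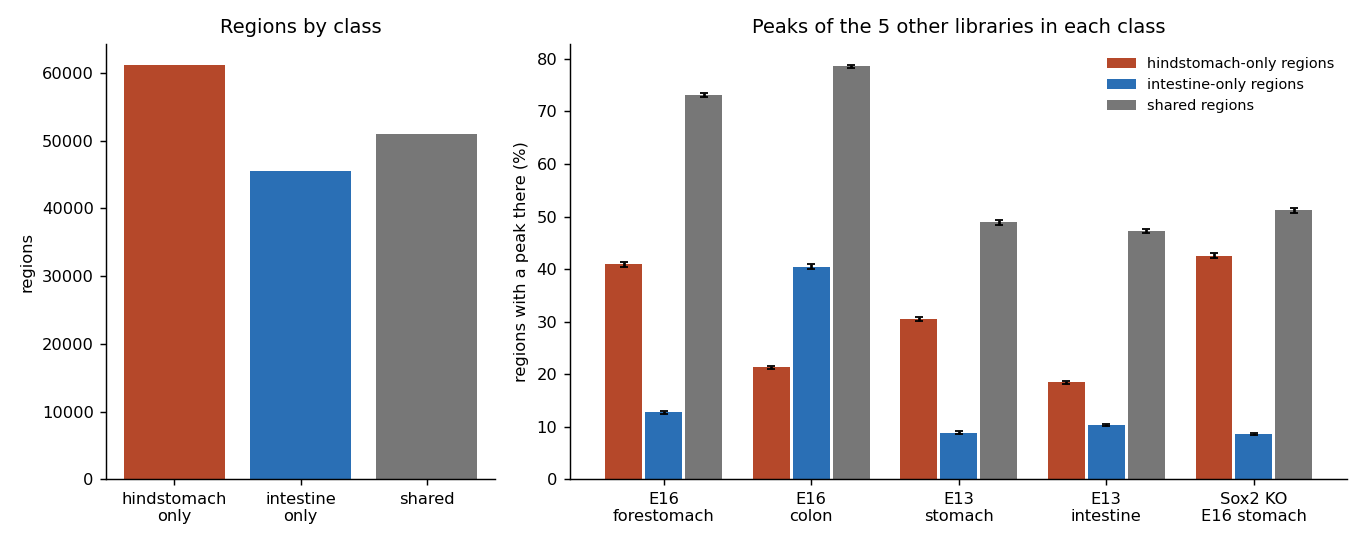
Left, the number of regions in each class; right, the share of each class, in percent, with a peak in each of the 5 other libraries, with 95% Wilson intervals as error bars. Hindstomach-only regions stand above intestine-only regions in every library but colon, where the order is 21.3% and 40.4%.

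The part of a class that other libraries also held grew with width. In regions under 100 bp, 54.0% of hindstomach-only and 44.6% of intestine-only regions had a peak in another library. Regions of 400 bp and over numbered 1557 in the hindstomach-only class, of which 8 (0.514%) had no peak elsewhere, and 227 in the intestine-only class, of which 46 (20.3%, 15.6 to 26.0) had none. Among the widest hindstomach-only regions were ones 40827 bp from Tnfrsf21, a death receptor (1150 bp wide), in Ptpn14, a phosphatase (1055 bp), and 26122 bp from Foxq1, a forkhead factor (987 bp). Each of these 3 had a peak in forestomach and in KO stomach. Among the widest intestine-only regions were ones in Hhat, which attaches palmitate to Hedgehog ligands (1045 bp), over the start site of H2-T3 (876 bp) and 18145 bp from Gas1, a Hedgehog co-receptor (753 bp). Gucy2c, the intestinal receptor for guanylin, had an intestine-only region of 680 bp over a start site, which colon, E13 intestine and KO stomach also held. Among the 46 wide intestine-only regions with no peak elsewhere, one of 747 bp lay at Egr1, an immediate early gene, one of 593 bp in Abcc2, an exporter of organic anions, and one of 474 bp in Slc6a19, a transporter of neutral amino acids. These genes were picked by width after their values were seen.

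**Figure D2:**
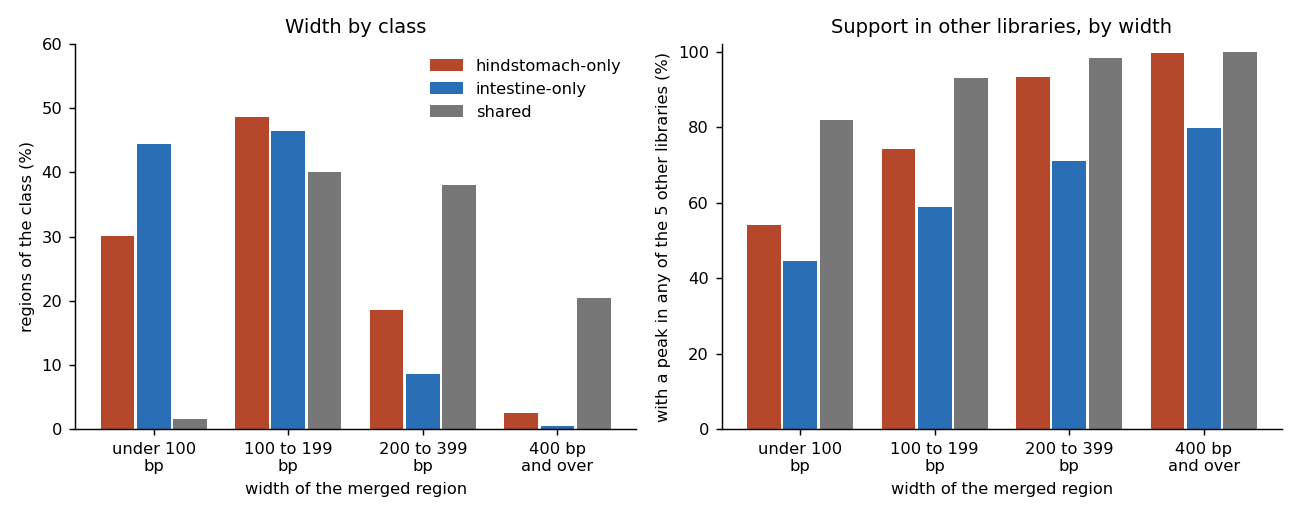
Left, the share of each class, in percent, in 4 ranges of region width; right, the share of the regions in each range, in percent, that had a peak in any of the 5 other libraries. At 400 bp and over the right panel shows 99.5% for hindstomach-only and 79.7% for intestine-only regions.

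Regions were then assigned to the nearest protein-coding gene within 100 kb, which placed 84.1% of them at 19175 genes. A gene was called towards one tissue where it had at least 2 more unshared regions of that tissue and at least 2-fold as many. By this rule 24.3% of the genes were called towards hindstomach and 8.25% towards intestine, and list counts are read against these shares. With lists of equal length the shares were 17.1% and 12.9%. Log2 ratios divide a gene's hindstomach-only regions by its intestine-only regions, with 0.5 added to each count, and their median over all genes was 0.21.

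Genes of the glandular stomach leaned to hindstomach. Of 20 such genes with a region, 11 were called towards hindstomach and none towards intestine, with 66 regions of hindstomach only, 18 of intestine only and 30 of both and a median log2 ratio of 1.58. Anxa10, an annexin known as a marker of gastric epithelium, had 14 hindstomach-only regions, no intestine-only region and 3 shared ones. A run of 13 hindstomach-only regions in a row over Anxa10, at chr8:62065093-62133286, was the longest run of either class. Its start site lay under a hindstomach peak of 369 bp that forestomach and KO stomach also had. Of the 14 regions, 8 had no peak in any of the other 5 libraries. Cldn18, the tight junction claudin of the stomach, had 7, 2 and 6 regions of the hindstomach-only, intestine-only and shared classes, and both of its RefSeq start sites were under hindstomach peaks, of 447 and 305 bp, with no intestine peak. Vsig1, a junctional adhesion protein of the glandular stomach, had 6, 1 and 0, and the keratin gene Krt19 had 6, 1 and 2. The surface mucin gene Muc5ac had 4, 2 and 0, the gland mucin gene Muc6 2, 0 and 5, and the trefoil peptide gene Tff1 2, 0 and 1. Genes of mature secretory cells had few regions, with 1, 0 and 0 at the pepsinogen gene Pgc and 0, 0 and 1 at Atp4a, a proton pump subunit. The gastrokine gene Gkn1 had 1, 2 and 1, and Gkn2 had no region.

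Among gastric transcription factors 7 of 16 were called towards hindstomach and 1 towards intestine. Gata4 had 11 regions of hindstomach-only class, 1 of intestine-only class and 8 shared ones. Gata6 had 12, 6 and 6. Ehf, an ETS factor of epithelia, had 14, 3 and 4. Sox2 had 9, 4 and 4, and its start site was under a peak in both tissues and in all 5 other libraries. Sox21 had 7, 2 and 3, and the forkhead gene Foxa3 had 3, 0 and 0. The factor called towards intestine was Elf3, with 1, 3 and 7.

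**Figure D3:**
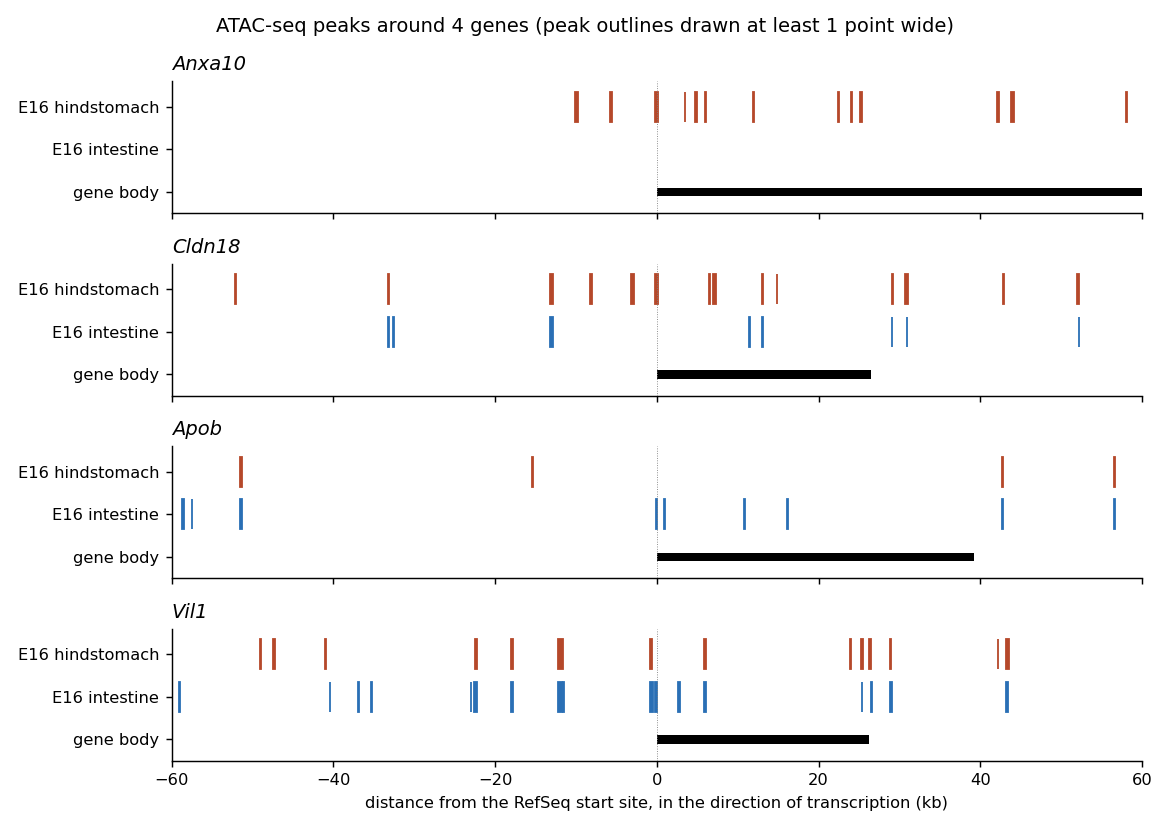
Peaks of E16 hindstomach (upper row of each panel) and E16 intestine (middle row), with the gene body (lower row), within 60 kb of the RefSeq start site of Anxa10, Cldn18 (the upstream one), Apob and Vil1; the axis is distance from the start site in kb, in the direction of transcription. Anxa10 has 13 hindstomach peaks and no intestine peak in the window, while Apob has 4 hindstomach peaks and 9 intestine peaks.

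Intestinal genes split by function. Of 16 intestinal transcription factors, 2 were called towards hindstomach and 5 towards intestine, with 68 regions of hindstomach only, 71 of intestine only and 91 of both. Cdx2 had no unshared region: its 5 regions were shared, and the widest, of 906 bp and 14273 bp downstream of its start site, was a region with a peak in all 5 other libraries as well. The Cdx2 start site also lay under a peak of both tissues. Colon, E13 intestine and KO stomach had a peak there too, while forestomach and E13 stomach had none. Cdx1 had no regions of hindstomach only, 2 of intestine only and 2 of both, Isx, a homeobox gene of the intestine, 2, 8 and 3, and Maf 2, 6 and 10. The direction of Maf turned with peaks at least as wide as their list's median, where it had 6 unshared regions of hindstomach and 3 of intestine. Hnf4g, the HNF4 paralogue of the intestine, had 3, 7 and 6. Cdx2, the defining factor of the intestine, thus had no unshared region in the 2 lists, while Cdx1, Hnf4g and Isx were called towards intestine, as were 8.25% of all genes. The call of Cdx1 rests on 2 regions, both outside its gene body and without a peak in any of the 5 other libraries.

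Hnf4a had 3, 5 and 3 regions, and its start sites differed. The upstream one, at position 163506857 of chromosome 2, was in a shared region of 473 bp with a peak in all 5 other libraries. The downstream one, at 163547155, was under an intestine peak of 87 bp and no hindstomach peak. It was not particular to intestine, since forestomach, E13 stomach, E13 intestine and KO stomach also had a peak there and colon had none. The intestine peak had the least width found in that list. Hnf4a is known to be transcribed from alternative promoters, of which the upstream one is known for its use in stomach.

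Genes of fat handling, the brush border and nutrient transport leaned to intestine by their summed regions, though the median lipid or brush border gene leaned to neither tissue. Of 15 genes of enterocyte lipid handling 2 were called towards hindstomach and 3 towards intestine, of 18 brush border genes 2 and 6, and of 15 intestinal transporters 2 and 4. Their summed regions were 33 hindstomach-only and 43 intestine-only, then 32 and 49, then 34 and 41, where all genes together had 59.3% of their unshared regions in hindstomach. The median log2 ratios were 0.00, 0.00 and -0.36, against 0.21 over all genes. Apob alone gave 11 of the 43 intestine-only regions of lipid handling, and Mgam 14 of the 49 of the brush border. Apob, the apolipoprotein of chylomicrons, had 2 regions of hindstomach only, 11 of intestine only and 4 of both, and Mttp, which loads lipid onto it, 3, 7 and 2. Mgam, a maltase-glucoamylase, had 3, 14 and 2, and the peptidase gene Dpp4 1, 7 and 3. Slc34a2, a phosphate transporter, had 2, 6 and 6. Single members went the other way: Espn, an actin bundler of microvilli, had 5, 0 and 3, and Acsl5, an acyl-CoA synthetase, 4, 1 and 2. Slc3a1, whose promoter was open in intestine only, had 3, 1 and 3 and was called towards hindstomach. Vil1, the actin bundler villin, had 1, 2 and 3, with an intestine peak of 299 bp over its start site and a shared region centred at -675 bp from it.

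Promoter windows were then compared. Of 21045 RefSeq promoter windows (the same 300 bases that are printed above), 8.89% (1870) held a hindstomach peak only and 2.01% (424) an intestine peak only, while 41.7% held both. A colon peak lay in 26.1% (24.2 to 28.1) of the hindstomach-only and 23.8% (20 to 28.1) of the intestine-only windows, and a KO stomach peak in 91.6% and 67.2%. By gene, 8.72% had a promoter peak in hindstomach only and 1.89% in intestine only. In the lists for lipid handling, brush border and transporters, 0 of 12, 1 of 16 and 1 of 14 genes with a promoter entry were open in hindstomach only, and 4 of each in intestine only. Together with the intestinal transcription factors these lists had 17 intestine-only promoter windows of 16 genes, and 9 of the 17, at 8 genes, had no peak in any of the other 5 libraries. Among all intestine-only promoter windows that share was 20.8% (17.2 to 24.9). The 8 genes were Sis, the sucrase-isomaltase, Mep1a, a metalloprotease of the brush border, Npc1l1, the sterol importer, Abcg5 and Abcg8, which export sterols, Slc3a1 and Slc7a9, which form the transporter of cystine and basic amino acids, and Slc26a3, a chloride exchanger. The windows of Abcg5 and Abcg8 shared 1 peak of 87 bp, and so did the 2 overlapping windows of Slc7a9 (106 bp). The peak at Sis was 87 bp wide, that at Slc3a1 156 bp and that at Slc26a3 325 bp. In contrast, the promoter of Slc5a1, the glucose transporter, held an intestine peak of 658 bp and a peak in colon, E13 stomach, E13 intestine and KO stomach.

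In hindstomach the promoters of Anxa10, Cldn18, Vsig1, Pgc and Bhlha15, a factor of secretory cells, held a peak that intestine lacked, 5 of 14 glandular genes with a promoter entry. Aqp5, a water channel, was the glandular gene open in intestine only. Of 10 genes of intestinal secretory cells 3 were open in hindstomach only and none in intestine only. They were Agr2, which folds mucins, Spdef, a factor of goblet cells, and Dll4, a Notch ligand. The peak at Dll4 was 99 bp wide, and forestomach, E13 intestine and KO stomach also had a peak there. Dll1, which counts as open in both tissues, had 1 start site open in hindstomach only and 1 in intestine only. This list leaned to hindstomach by regions too, with 6 of 13 genes called towards it and none towards intestine (4 and 1 with lists of equal length). Creb3l1, a secretory pathway factor, had 11 regions of hindstomach only, 3 of intestine only and 6 of both, Agr2 5, 0 and 1, and Reg4 5, 1 and 3. Muc2, the mucin of intestinal goblet cells, had 1, 0 and 4. Mucous cells of the stomach are known to use several genes of this list.

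Genes of Wnt signalling and stem cells had 6 of 17 members called towards hindstomach and none towards intestine. The tumour necrosis factor receptor gene Tnfrsf19 had 13, 1 and 6 regions, and the Wnt targets Ephb3 and Ephb2 had 12, 3 and 4, and 14, 6 and 7. Lgr5, the stem cell marker, had 8, 6 and 6 and was not called. The promoters of Axin2, Cd44, Olfm4 and Prom1 held a peak in hindstomach and not in intestine, 4 of the 12 genes with a promoter entry. These peaks were not particular to hindstomach: forestomach, E13 intestine and KO stomach had a peak in all 4 promoters, while colon had none. In the Hedgehog pathway 5 of 14 genes were called towards hindstomach and 2 towards intestine. The ligand gene Shh had 10 regions of hindstomach only, 4 of intestine only and 3 of both, and 7 of the 10 had a forestomach peak while 1 had a colon peak. Disp1, which releases the ligand, had 12, 3 and 2, and the transducer gene Smo 2, 0 and 2. Hhip, which binds and restrains the ligand, had 3, 9 and 4, and 8 of its 9 intestine-only regions had a colon peak. Boc, a co-receptor, had 0, 2 and 5.

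**Figure D4:**
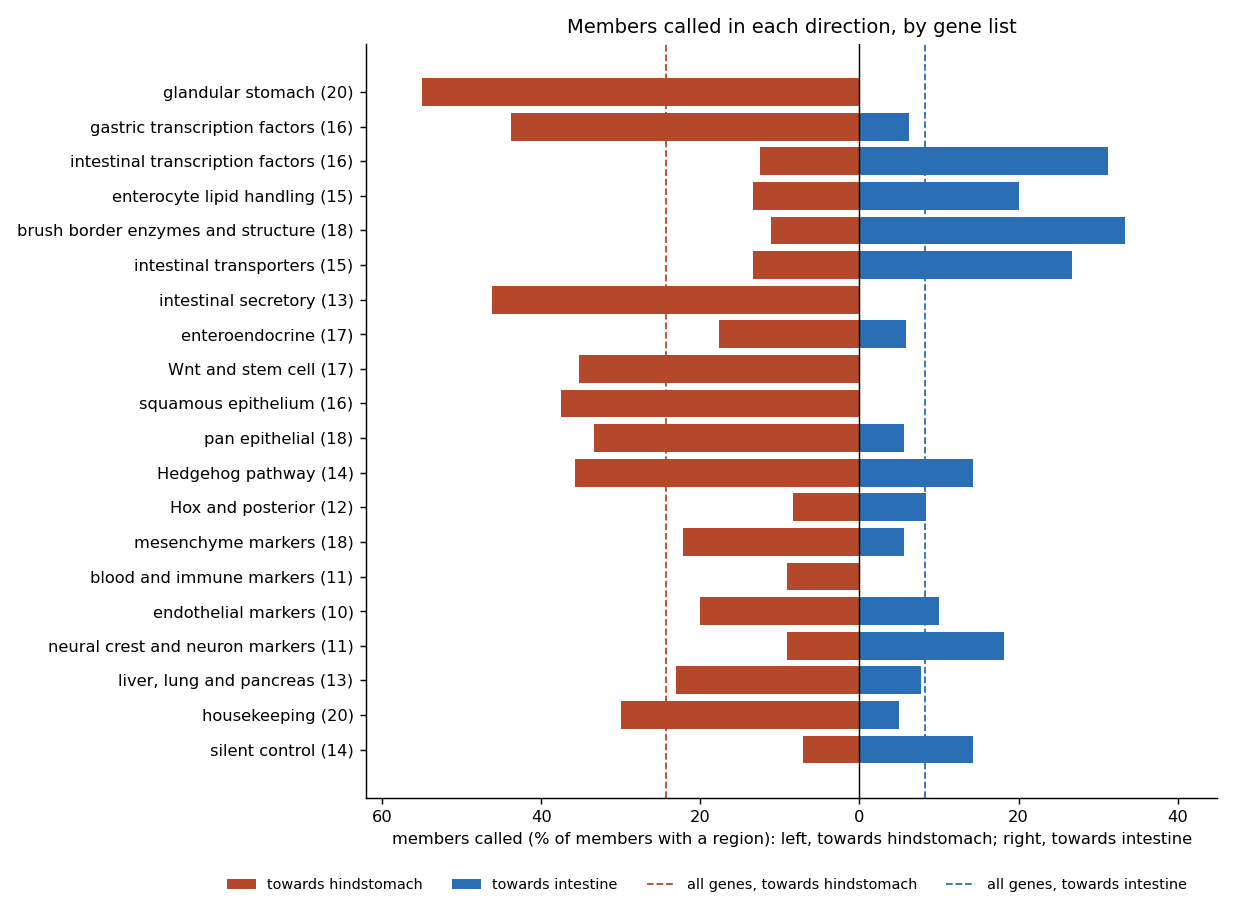
Share of the members of each of the 20 gene lists that were called towards hindstomach (bars to the left) and towards intestine (bars to the right), in percent of the members with a region, whose number is in parentheses; dashed lines mark the shares over all genes, 24.3% and 8.25%. Glandular genes reach farthest left with 11 of 20, and brush border genes farthest right with 6 of 18.

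The lists for other cells and for control genes give the scale of differences that the labels do not name. Of genes of squamous epithelium, which lines the forestomach, 6 of 16 were called towards hindstomach and none towards intestine (4 and 1 with lists of equal length). They include the p63 gene Trp63 with 7, 2 and 1 regions, Pitx1 with 5, 0 and 2 and Pax9 with 4, 0 and 2. Keratin genes of squamous epithelium had few, with 1, 1 and 0 at Krt14 and none at Krt4. Mesenchyme markers had 4 of 18 called towards hindstomach and 1 towards intestine, with 49, 42 and 45 regions. Blood markers had 1 of 11 and none, endothelial markers 2 of 10 and 1, and neural markers 1 of 11 and 2. Among these the smooth muscle gene Des had 3, 0 and 0, the endothelial gene Pecam1 5, 0 and 3 and the neuronal gene Elavl4 2, 9 and 6, while the glial gene Sox10 had no region. Other members of the same lists were called in the opposite direction. Tcf21 of the mesenchyme markers had 2, 4 and 4, the endothelial Tek 2, 4 and 1 and the neural Uchl1 3, 1 and 3. The part of these cells in the results was not tested. Of 20 housekeeping genes, 6 were called towards hindstomach and 1 towards intestine (3 and 1 with lists of equal length), and the promoters of Gapdh and Rps18 held a peak in hindstomach and in all 5 other libraries but not in intestine. This was wider than these genes: 16.7% (15.1 to 18.5) of hindstomach-only promoter windows had a peak in all 5 other libraries, against 5.42% (3.64 to 8.01) of intestine-only ones. The intestine list thus lacked a peak in 313 of the 300-base promoter windows where the other 6 libraries had one, against 23 for hindstomach. With the window extended by 500 bp on both sides, Gapdh held a peak of both tissues, while Rps18 still held a hindstomach peak only. Of 14 silent genes 1 was called towards hindstomach and 2 towards intestine.

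Over all genes the largest excess of hindstomach-only regions was at long genes. Kalrn, a guanine nucleotide exchange factor, had 36 regions of hindstomach only, 12 of intestine only and 19 of both, Pard3b, a polarity gene, 33, 9 and 11, and Abcc4, an exporter of cyclic nucleotides, 29, 6 and 8. The kinase gene Cdk19 had 23, 2 and 4. The largest excess of intestine-only regions was at Rbfox1, a splicing regulator with a body of 1528 kb, with 23, 43 and 21, and Lingo2, a gene of neurons, had 8, 22 and 10. Among genes under 50 kb, Fam3c, a secreted factor, had 15, 3 and 3 regions, Jdp2, an AP-1 family repressor, 13, 2 and 2, and Jun, an AP-1 subunit, 11, 1 and 7. On the intestine side Apob shared the lead with Etaa1, a gene of the replication stress response (1, 10 and 3), and Sall4, a zinc finger factor of early embryos, had 3, 10 and 0. By position, 2 windows of 1 Mb tied for the largest hindstomach excess. The window at 30 to 31 Mb of chromosome 16 had 67 hindstomach-only and 20 intestine-only regions, and that at 131 to 132 Mb of chromosome 1 had 63 regions of hindstomach only, 16 of intestine only and 27 of both. A run of 10 intestine-only regions in a row lay over the Cyp3a cluster, at chr5:145336797-145641303, whose near-identical copies make the placing of reads uncertain.

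Motif letters were counted in the promoter windows, of which some overlap where a gene has several start sites. Over all promoters CAAAGTCCA was in 0.456%, CAAAGNNCA in 5.80%, TTTATNG in 9.49%, AGATAA in 9.68% and TGANTCA in 7.04%. The longer HNF4 letters were in 8 of 1870 hindstomach-only windows (0.428%, 0.217 to 0.842) and in 12 of 424 intestine-only windows (2.83%, 1.63 to 4.88), where windows open in both had 0.364%. The looser form was in 3.64% (2.88 to 4.58) of hindstomach-only and 10.1% (7.62 to 13.4) of intestine-only windows, the CDX letters in 6.90% (5.84 to 8.14) and 13.7% (10.7 to 17.3), and AGATAA in 6.79% (5.74 to 8.02) and 11.8% (9.06 to 15.2). Windows open in neither tissue held the looser HNF4 form in 6.93% (6.45 to 7.45), the CDX letters in 13% (12.4 to 13.7) and AGATAA in 14.2% (13.6 to 14.9). For CDX and AGATAA the intestine-only share thus did not stand above that of these windows. Intestine-only windows were also poorer in CpG, with a median of 10 CpG against 17 in hindstomach-only windows. Within windows of fewer than 10 CpG the HNF4 letters were in 1.15% (0.526 to 2.48) of hindstomach-only and 4.81% (2.63 to 8.62) of intestine-only windows, and the CDX letters in 11.6% (9.17 to 14.7) and 21.2% (16.2 to 27.2). AP-1 letters went the other way there, in 18.1% (15.1 to 21.7) and 9.62% (6.31 to 14.4). AGATAA was in 12.2% (9.68 to 15.3) and 19.7% (14.9 to 25.6), with intervals that overlap, and in 17.2% of the windows open in neither. Of 25 motifs searched, the intervals of both classes did not overlap for 4 over all windows, all higher in intestine-only, and for 4 in windows of fewer than 10 CpG, of which AP-1 was higher in hindstomach-only. For windows of 10 or more CpG all 25 pairs of intervals overlapped. The 12 intestine-only windows with CAAAGTCCA belonged to 11 genes, since Agxt2 had 2 overlapping windows, and included the mucin gene Muc13, Slc3a1 and the glycosyltransferase gene B3gnt3.

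**Figure D5:**
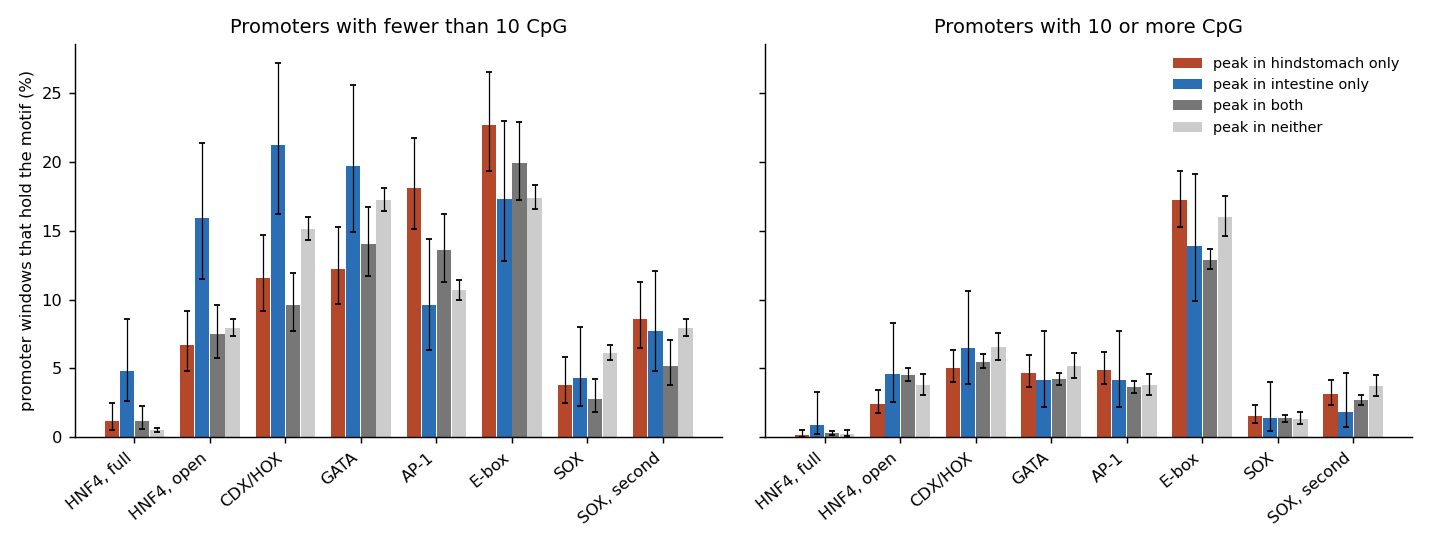
Share of promoter windows, in percent, that hold the letters of 8 of the 25 motifs, by the tissue with a peak there, in windows with fewer than 10 CpG (left) and 10 or more (right); error bars are 95% Wilson intervals. On the left the HNF4 letters are in 1.15% of hindstomach-only and 4.81% of intestine-only windows, and AP-1 letters in 18.1% and 9.62%.

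MicroRNA genes gave 1 further contrast. Of 1005 RefSeq hairpins, 7.16% (72) had a hindstomach peak only within 1 kb and 2.29% (23) an intestine peak only, while 121 had both. Mir194-1 and Mir215, a pair on chromosome 1 known for expression in intestinal epithelium, lay beside 1 intestine peak of 163 bp at chr1:185313907-185314070, and no other library of the 7 had a peak within 1 kb of them. This was not particular to the pair, which is named among the 23 for that known expression. Other intestine-only hairpins, among them Mir103-1, Mir196b, Mir200b and Mir34a, likewise had no peak of another library within 1 kb. The mature sequences of Mir194-1 and Mir215 (RefSeq, GRCm38.p6, plus strand), shown since the peak lies beside both, have the seed, bases 2 to 8, in capitals.
mmu-miR-194-5p: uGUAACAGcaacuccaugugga
mmu-miR-215-5p: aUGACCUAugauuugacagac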

How the data were processed

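Per the labels, ATAC-seq was run on genomic DNA of mouse embryonic gut. Tools named in the submitters' processing notes are cutadapt, Bowtie2 and MACS2, with the build GRCm38/mm10; neither versions nor thresholds nor pooling of libraries is given in the sources used here. Each deposited file has 3 columns, which place a peak by chromosome, start and end as the authors called it, with no signal, score or normalization. The files do not state if the first base counts as 0 or 1, and positions are printed as deposited. Depth is unknown; the number of peaks and 1 library per group limit the precision.

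Peaks overlapping by at least 1 bp were merged with Python 3.11.15, numpy 2.4.6, pandas 2.3.3 and scipy 1.17.1, and figures used matplotlib 3.10.9. Genes, start sites and promoters are RefSeq GRCm38.p6. Where a protein-coding gene had no promoter entry, either gene end counted as a start site for the regions within 1 kb. The merging was tested on simulated data made from the intestine list alone, which was set against a thinned and shifted copy of itself with planted peaks added. All 5000 planted peaks and 39121 of 39128 dropped ones were recovered. The hindstomach list took no part in it.

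The members and the 20 gene lists were chosen with earlier results of these data known. Named genes are 12 always given, up to 4 per list with the largest difference of at least 2 regions, and up to 10 per direction over all genes and over genes under 50 kb; the text prints a part (some named by the rule are not reported here) and names others for context after their values were seen. The list gene Gif did not match the annotation. A genome sequence was not used here, so motifs were searched in promoter windows. No test was run. Alternatives changed the overlap, the merging distance, peak width, list length, gene assignment and start-site window.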

Additional observations from a re-analysis of the deposited data

Results flagged for a closer look

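No comparison used the peaks outside the chromosomes compared, and such peaks were present in both lists. On chromosome Y hindstomach had 639 peaks and intestine 719, and on the mitochondrial chromosome hindstomach had 4 and intestine 5. The sex of the embryos is not in the labels used here.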

How the results depend on the processing

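With peaks at least as wide as their list's median, hindstomach-only regions numbered 29918, intestine-only 22191 and shared 26479. The log2 ratio of the unshared classes, hindstomach over intestine, was 0.41 with peaks within 200 bp merged, 0.41 with 7 lists merged and 0.01 with the widest peaks at equal list length. At that length 2443 genes were called towards intestine. With promoter windows extended by 500 bp on both sides, Cd44, Dll4, Gapdh, Vdr and Vil1, among others, held a peak of both tissues. The extended windows of Rps18 and Anxa10 still held a hindstomach peak only, and those of Sis and Slc3a1 an intestine peak only. With start-site windows of 500 bp and 2.5 kb, 6.60% and 13.4% of hindstomach-only, 3.07% and 7.46% of intestine-only and 21.2% and 26.8% of shared regions were near a start site, by construction.

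Of 160 list values 155 stayed within the 95% Wilson interval of their list's main counts. That interval covers counting error only and is wide for small lists, so a value inside it can change direction. For Hox and posterior genes the log2 ratio of summed regions was 0.58 in the main setting and -0.58 at equal list length. Outside the interval, the log2 ratio of summed regions was 1.39 for gastric transcription factors, 1.24 for mesenchyme markers and 1.49 for liver, lung and pancreas genes with the gene body extended by 10 kb. It was -0.59 for intestinal transcription factors at equal list length, and -1.16 for intestinal transporters with peaks at least as wide as the median. The cause was not tested. At equal list length 11 glandular genes were called towards hindstomach and none towards intestine, and brush border genes had 1 and 6 such calls. Gastric transcription factors then had 5 and 2, against 7 and 1, and enteroendocrine genes 1 and 4, against 3 and 1. Intestinal secretory and squamous genes each had 4 and 1, against 6 and none, and housekeeping genes 3 and 1, against 6 and 1. All 15 shares of regions with a peak in another library were lower with an overlap of 50%.

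Of 928 values for named genes 9 turned. Hindstomach-only minus intestine-only regions were -3 for Tcf7l2, -1 for Foxd3 and 1 for Tnp1 with the nearest gene within 20 kb, and -1 for Foxd3 with the extended body. With peaks at least as wide as the median they were 3 for Maf and -1 for Foxl1, Kdr, Cdh5 and Uchl1.

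No paired analysis was possible because each group had 1 library. Motifs in whole regions were not run, since no genome sequence was used here. Unknown depth limits every count of unshared regions: the lists do not show signal below the authors' threshold, and leaving out a replicate was not possible.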
